A study of Oryza sativa with 2 samples.

Results

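Glutathione S-transferases (GSTs) of rice were followed on 2 two-colour oligonucleotide arrays that set RNA of seedlings given jasmonic acid against RNA of seedlings left without it. The members were the 4 genes whose symbol or synonym in the RefSeq gene table is GSTU6, GST-I, GST-II or GSTZ5 (LOC4332455), out of 15798 genes with a probe that carries 1 gene. They were measured by 6 of 17839 such probes: 3 for GSTU6 and 1 for each of the other 3 genes. The exposed group received jasmonic acid at 5 µM and the unexposed group consisted of healthy seedlings aged 7 days, and both were raised on MS medium in a growth chamber. The titles speak of shoots and the design text of whole seedlings, and one label can be read as an exposure lasting 7 days, which elsewhere is the age. Neither cultivar nor genotype is given in the labels, so no limit of the plants as a model can be stated beyond this. On array 1 the exposed RNA carried Cy5 and the unexposed RNA Cy3, while array 2 had them the other way round. Both arrays bear replicate number 1, though their titles end in 1 and 2. They are taken here as a technical dye swap of 1 replicate, and no spread between plants and no p-value can be given.

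GSTs join glutathione to reactive or toxic compounds, which makes the products soluble and marks them for transport into the vacuole. In plants the tau and phi classes are the ones best known for detoxification, herbicides included, whereas zeta class enzymes act as isomerases in the breakdown of tyrosine. Jasmonic acid is a hormone that plants make on wounding and attack. By their names in the gene table, GSTU6 (LOC4349207, chromosome 10) belongs to the tau class, GST-I (LOC4325710, also GSTF1) and GST-II (LOC4326887, also GSTF2), both on chromosome 1, to the phi class, and GSTZ5 on chromosome 3 to the zeta class. The table gives no descriptions, so the class rests on the name alone.

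Each deposited value is the log10 of a ratio of whole numbers, shown here on the log2 scale. Which RNA or dye stands on top is not stated, and the columns are not centred: the median was −0.30 on array 1 and −0.32 on array 2. The swap mean averages the arrays after reversing the sign of array 2, and the plain mean leaves the sign as deposited. If Cy5 is the numerator on both arrays, a swap mean above 0 is a higher level in exposed than in unexposed seedlings; if Cy3 is, it is a lower one. If both columns are exposed over unexposed, the plain mean carries the treatment and the swap mean carries dye effects. A ratio of 2 or more on array 1 together with one of 0.5 or less on array 2 is called the array 1 side, and the reverse the array 2 side. Every gene name depends on reordering the spots in a way that was found from the values and that no source states. Spot brightness is the log2 geometric mean of the terms of the reduced ratio, averaged over the arrays. Common factors cancel in such a ratio, so brightness is a lower bound on signal.

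GSTU6 gave the largest swap means among the members, on 2 of its 3 probes. The probe for cDNA AK103699 had a log2 ratio of 1.54 on array 1, from the whole-number ratio 379/130, and of −1.73 on array 2, from 279/926. Its swap mean was 1.64, a size of 3.11-fold. The probe for cDNA AK059760 had 1.08 on array 1 (378/179) and −1.32 on array 2 (359/895), which gives a swap mean of 1.20 and a size of 2.29-fold. Both probes were more than 2-fold above 1 on array 1 and more than 2-fold below 1 on array 2, so both lay on the array 1 side. The gap between the arrays, once array 2 is turned, was 0.19 for AK103699 and 0.24 for AK059760, well under either swap mean.

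The third GSTU6 probe did not share this pattern. The probe for cDNA AK111429 had −0.56 on array 1 (21/31) and −0.28 on array 2 (19/23), below 1 on both arrays, with a swap mean of −0.14. Its gap between the turned arrays was 0.84, larger than its swap mean in size, so the values as deposited set no side for it. Centred on each array median it had −0.26 and 0.041, a gap of 0.22. After centring on the running median at like brightness it had −0.11 and 0.20, opposite in sign to the bright probes and short of 2-fold. That gap was 0.087, smaller in size than the swap mean of −0.15. AK111429 had the lowest brightness bound of the gene, 4.53 at percentile 31.2 of all probes with 1 gene, where AK103699 and AK059760 had 8.39 and 8.58 at percentiles 93.4 and 94.4. On array 1 the ratio of AK103699 exceeded that of AK111429 by 2.11 (log2), and on array 2 the difference was −1.46. The mean of the 3 probes was 0.69 on array 1 and −1.11 on array 2, which gives 0.90 as swap mean. It describes none of them and falls short of 2-fold on array 1.

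**Figure D1:**
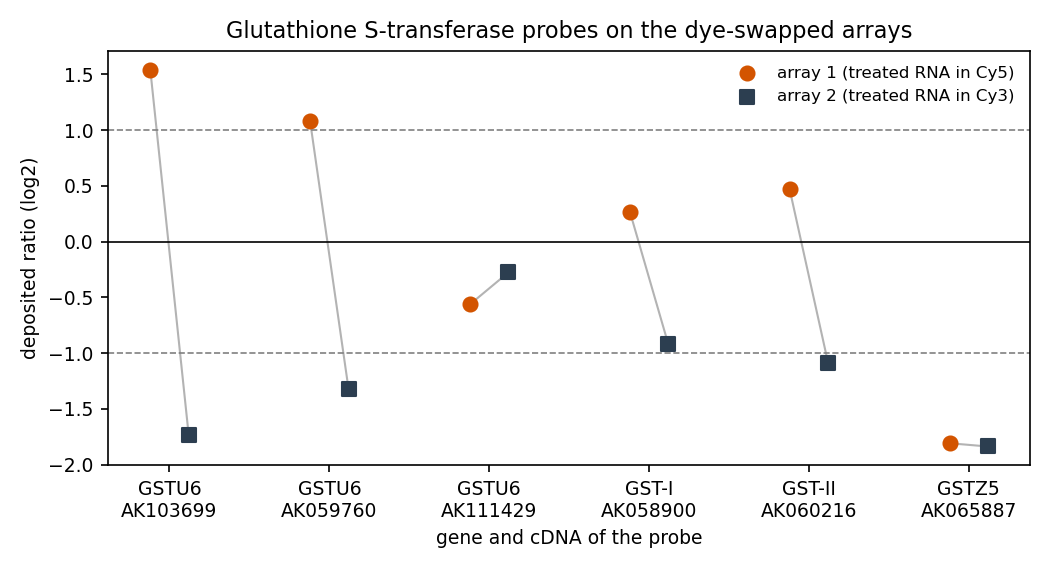
Deposited log2 ratios (vertical axis) of the 6 member probes (horizontal axis, by gene and cDNA) on array 1 (circles) and array 2 (squares), with dashed lines at 2-fold. AK103699 and AK059760 of GSTU6 pass 2-fold in opposite directions, GST-I and GST-II lean the same way, and GSTZ5 lies below −1 on both arrays.

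The disagreement inside GSTU6 was wide for this data set. Between its highest and lowest probe the swap mean ranged over 1.78, and none of the other genes with at least 3 probes had a wider range: there were 169 such genes with GSTU6, and their median range was 0.26. The bright pair differed by 0.44 in swap mean. Of 1859 genes with at least 2 probes, 3 had at least 2 probes on the array 1 side: GSTU6, LOC4338208 and LOC4338644. The spots of AK103699 and AK059760 lay 62 lines and 40 positions apart on the deposited grid, and that of AK111429 lay 84 and 146 lines from them. Whether AK111429 reads another transcript was not tested.

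**Figure D2:**
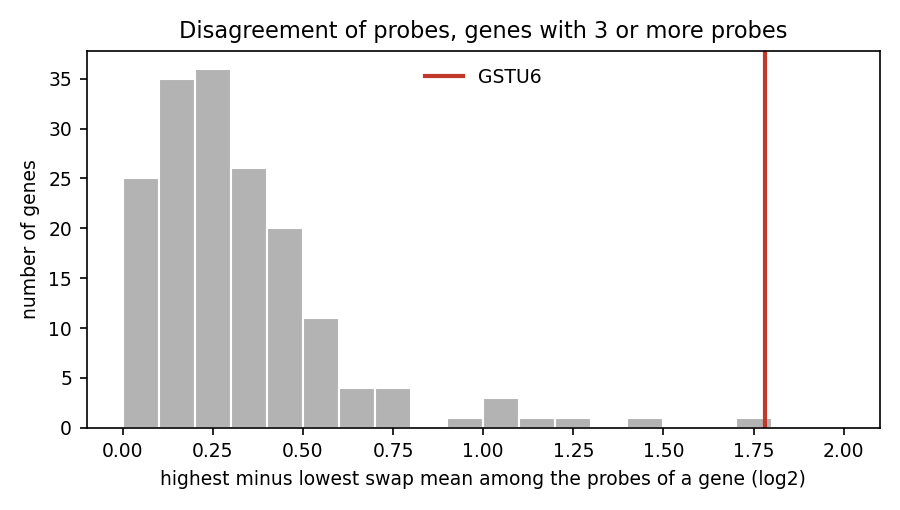
Histogram of the range of the swap mean among the probes of a gene (log2, horizontal axis) over 169 genes with at least 3 probes (vertical axis, number of genes). The red line marks GSTU6, at 1.78, at the upper end.

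GST-I and GST-II, the phi class members, leaned the same way as the bright GSTU6 probes without passing 2-fold on both arrays. GST-II had 0.47 on array 1 (1898/1371) and −1.08 on array 2 (5749/12187), which gives a swap mean of 0.78 and a size of 1.71-fold. GST-I had 0.27 on array 1 (76/63) and −0.92 on array 2 (44/83), which gives a swap mean of 0.59 and a size of 1.51-fold. In each gene the array 2 value was the larger in size, and the gap between the turned arrays was 0.61 for GST-II and 0.64 for GST-I. How much of that gap remained depended on the centring. After each array was centred on its own median, GST-II had 0.77 and −0.77 and GST-I had 0.57 and −0.60, gaps of 0.0017 and 0.029. After centring on the running median at like brightness, GST-II had 0.54 and −1.16, a gap of 0.62, and GST-I had 0.45 and −0.73, a gap of 0.28. Centring on the array median did the opposite to the bright GSTU6 probes, whose gaps became 0.43 for AK103699 and 0.38 for AK059760, and AK059760 then passed 2-fold on array 2 by the narrowest margin, at −1.001.

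GSTZ5, the zeta class member, stood apart from the others with a low ratio on both arrays. It had −1.81 on array 1 and −1.84 on array 2, a plain mean of −1.82 and a swap mean of 0.015. These values are the whole-number ratios 2/7 and 7/25, and the brightness from them was 2.81, at percentile 6.96. Being a lower bound, it does not show how strong the signal was. If the terms are not themselves reduced from larger ones, 1 unit more in the smaller term would move the log2 ratio by 0.58 on array 1 and 0.19 on array 2, and 1 unit less by 1 on array 1 and 0.22 on array 2. For the bright GSTU6 probes the same step would move a ratio by at most 0.011, and for GST-I by at most 0.033. The ratio 2/7 occurred on array 1 at 26 of the 17839 probes.

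**Figure D3:**
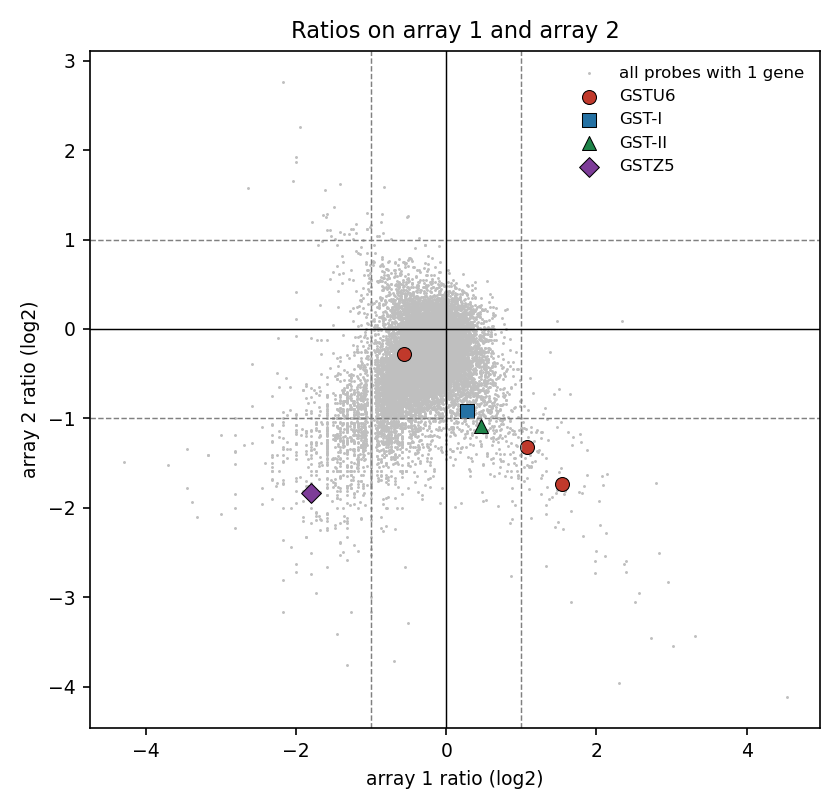
Log2 ratio on array 1 (horizontal axis) against array 2 (vertical axis) for all 17839 probes with 1 gene (grey) and the 6 member probes (coloured by gene), with dashed lines at 2-fold. GSTU6 has 2 probes in the lower right corner, GST-I and GST-II lie between them and the centre, and GSTZ5 lies at the lower left.

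Counted by probe, 2 of the 6 member probes were on the array 1 side, where 0.544% of all 17839 probes were, 0 were on the array 2 side, where 0.168% were, and 1 was at least 2-fold below 1 on both arrays, where 4.42% were. No probe of any gene was at least 2-fold above 1 on both arrays. Counted by gene, with probes averaged, 0 of the 4 members were on the array 1 side, against 0.5% of all genes, and 0 on the array 2 side, against 0.165%. GSTZ5 was the 1 member lower on both arrays, against 3.85% of all genes. The choice between probes and genes thus decides whether GSTU6 is counted.

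Set against probes of like brightness, the members fell into separate kinds of neighbourhood. Within 0.5 log2 units of the brightness of AK103699 there were 1068 probes with 1 gene, and 6 of them, itself included, had a swap mean as high. For AK059760 it was 13 of 918 probes. For GST-I it was 100 of 3525, or 2.84%. For GST-II, which lay at brightness percentile 99.7, it was 7 of 48, or 14.6%, since swap means spread more among the brightest spots. Their scaled median absolute deviation was 0.33 around GST-II and 0.16 around GST-I. The plain mean of GST-II, −0.31, was the lowest of its 48.

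The arrays mirrored each other around the members of high brightness and not around those of low brightness. Across the 1068 probes near AK103699 Pearson's r between the deposited columns was −0.71, and 27 probes had a swap mean of at least 1 in size where 0 had a centred plain mean of that size. Near GST-II r was −0.86 over 48 probes and near GST-I −0.42 over 3525. Near GSTZ5 r was 0.54 over 1512 probes, 200 of them with a centred plain mean of at least 1 in size against 9 with such a swap mean. Near AK111429 r was 0.10 over 3407 probes. These are correlations across probes that share RNA, array and brightness, and probes are not replicates.

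GSTZ5 was low even for its brightness, but not alone. Of the 1512 probes within 0.5 of it, 307, or 20.3%, had ratios of 0.5 or less on both, and 45, or 2.98%, had a plain mean as low as its own. The median plain mean there was −0.74, against −0.26 over all probes with 1 gene. With each array centred on the running median at its brightness, GSTZ5 had −1 on array 1 and −1.03 on array 2.

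**Figure D4:**
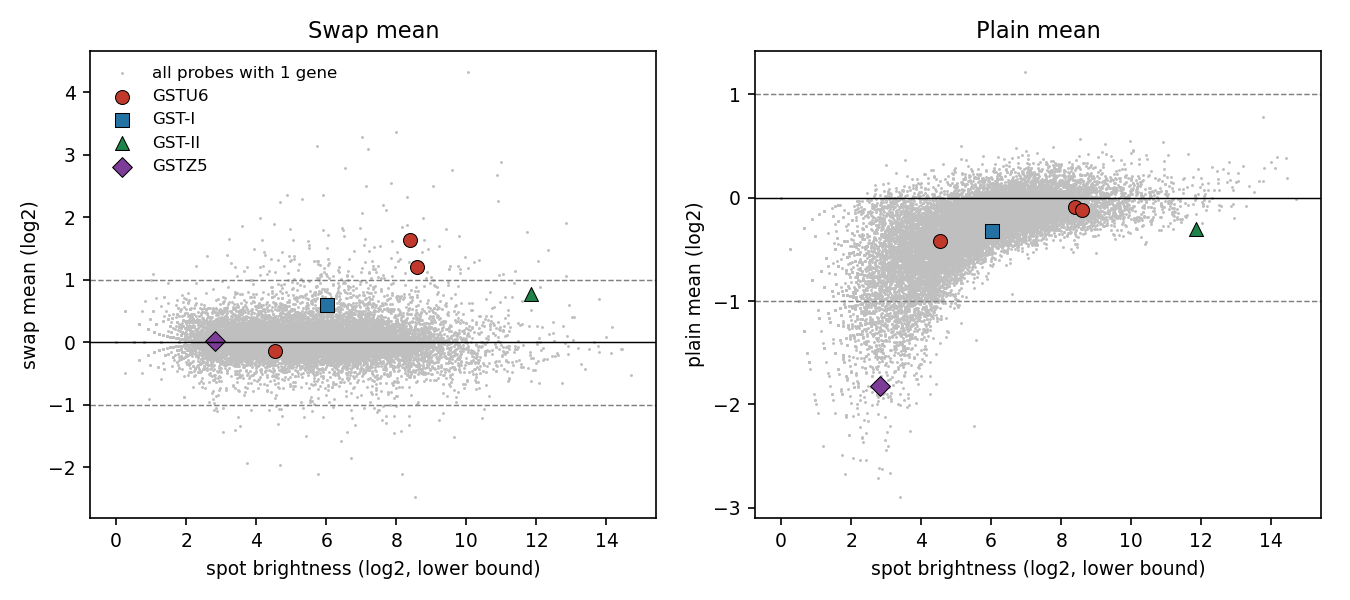
Swap mean (left) and plain mean (right), both log2, against spot brightness (log2, a lower bound) for all 17839 probes with 1 gene (grey) and the 6 member probes (coloured by gene). The bright GSTU6 probes lie at the upper edge of the cloud on the left and inside it on the right, at −0.094 and −0.12, and GSTZ5 stands at the low edge on the right, at a low brightness.

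The unsettled numerator gives each member more than one reading. With Cy5 on top, exposed seedlings would have 3.11-fold and 2.29-fold more signal than unexposed ones at the bright GSTU6 probes. They would have 1.10-fold less at AK111429, 1.71-fold more at GST-II and 1.51-fold more at GST-I. GSTZ5 would differ by 1.01-fold, though its turned arrays lay 3.64 apart (log2). With Cy3 on top each size stays the same and its direction turns. With exposed over unexposed on both arrays, exposed seedlings would have 1.07-fold and 1.09-fold less at the bright GSTU6 probes, 1.24-fold less at GST-II, 1.25-fold less at GST-I and 3.54-fold less at GSTZ5, as deposited. Under this last reading the direction turns for the bright GSTU6 probes when each array is centred on its median. Their plain means become 0.21 for AK103699 and 0.19 for AK059760, 1.16-fold and 1.14-fold more in exposed seedlings. AK111429 had a plain mean of −0.42 as deposited and stays below 0, at −0.11. With centring on the running median at like brightness the bright probes do not turn, at −0.072 and −0.094, and AK111429 is at 0.044. With each array centred on its median, GST-II and GST-I differ by under 1.01-fold, and GSTZ5 keeps a plain mean of −1.51. With centring at like brightness the plain means are −0.31 for GST-II, −0.14 for GST-I and −1.01 for GSTZ5. In whole tissue, fewer cells of a type and less RNA per cell cannot be told apart.

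Among the members, 3 of the 6 pairs kept their order on both arrays with array 2 turned. GSTU6, by the mean of its probes, exceeded GST-I in swap mean by 0.30 and GST-II by 0.12, and the arrays disagreed on these differences by 0.22 and 0.19. The difference between GSTU6 and GST-II was therefore smaller than the disagreement of the arrays. GST-I lay below GST-II by 0.20 on array 1 and by 0.17 on turned array 2, a difference of −0.18 on which the arrays disagreed by 0.030. Centred by brightness, that pair differed by −0.095 on array 1 and −0.43 on turned array 2. The arrays then disagreed by more than the size of the swap mean difference, −0.26. As deposited, no order was kept between GSTZ5 and any other member, as the arrays disagreed by 2.999 to 3.22. With centring by brightness the count was again 3 of 6 with other pairs in it: GST-II and GSTZ5 kept their order, at 1.54 on array 1 and 0.13 on turned array 2, and GSTU6 and GST-II lost it, at 0.32 and −0.21.

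The spots around the members had swap means near 0. Over the up to 120 other spots within 5 lines and 5 positions, the median swap mean was 0.042 around AK103699, −0.069 around AK059760, 0.085 around AK111429, −0.031 around GST-I, −0.018 around GST-II and 0.015 around GSTZ5. Subtracting it left AK103699 at 1.60, AK059760 at 1.27 and AK111429 at −0.23. The surroundings were taken on the deposited grid, without control-like spots.

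The gene table names 2 more GSTs that were measured, and both had ratios near 1. Genes under a locus number alone could not be recognised as GSTs, so the family here is the named genes only. GSTU1 (LOC4334347, also GST1), a tau class gene by name, had −0.090 on array 1 (917/976) and 0.019 on array 2 (7545/7444), with a swap mean of −0.055 on a spot as bright as 11.4. GSTZ3 (LOC4329692, also gst2), a zeta class gene by name, had 0.036 on array 1 and −0.15 on array 2, with a swap mean of 0.094 and a brightness of 6.98. By class name the genes thus held unlike ratios: the tau gene GSTU1 was near 1 where the bright GSTU6 probes were not, and the zeta gene GSTZ3 was near 1 where GSTZ5 was low. Over the 6 named genes the median swap mean was 0.34, against 0.0069 over all genes, and the range ran from −0.055 to 0.90. That median includes the members, chosen with earlier results of these data known, so it does not describe the family apart from them.

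Genes named for the supply of glutathione or the transport of its conjugates had swap means of −0.22 to 0.21. The gene gcs (LOC4337696, also GSH1-1), whose name is that of glutamate-cysteine ligase, the enzyme of the first step of glutathione synthesis, had −0.12 and −0.50 on the arrays, which gives a swap mean of 0.19. GR (LOC4331112, also GRC2), by name a glutathione reductase, which restores glutathione from its oxidised form, had −0.89 and −0.45 at a low brightness, a swap mean of −0.22. ABCC13 (LOC4331585, also LPA2), of the transporter family that pumps glutathione conjugates in plants and also carries phytic acid, had −0.11 and −0.53, a swap mean of 0.21. None of these 3 genes was 2-fold on either side or below 1 by that much on both. They were 2 of the 4 genes of the synthesis and recycling list and the 1 gene of the transport list found by name.

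By distance over the centred ratios of both arrays, among named genes within 1 log2 unit of brightness, the nearest to the GSTU6 mean were Hox13 at 0.061 and PAL06 at 0.081. That mean describes none of the GSTU6 probes, so these genes were not matched to any of them. The nearest to GST-I were HOX6 at 0.022 and OsPP2C12 at 0.060, and to GST-II SAM1 at 0.40 and SAM2 at 0.43, out of 30 candidates. GSTZ5 had CIPK10 at 0.24 and BURP10 at 0.28. With 2 arrays, such nearness describes a pair of numbers only.

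Genes beside the members in chromosomal order were measured in part. Of the 5 protein-coding genes on each side of GSTU6, 6 were measured, with swap means of −0.82 to 0.24, and 2 of them, of low brightness, were at least 2-fold below 1 on each array. The lowest was LOC4349202, 4 places away, with −1.02 on array 1 and 0.63 on array 2, opposite in sign to the bright GSTU6 probes on each array. Around GST-II, 7 were measured, with swap means of −0.085 to 0.59, and around GSTZ5 5 were, with plain means of −0.53 to −0.028, well above the −1.82 of GSTZ5. Around GST-I, 3 were measured, with swap means of −0.052 to 0.66.

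The tissue named in the labels could be checked only through ratios, which give no level, and through brightness, which is a lower bound on signal. Of the 6 shoot markers 5 were measured, with swap means of −0.65 for petC to 1.05 for PORA, and of the 7 root markers 4 were, with −0.016 for LSI2 to 0.54 for AMT1-2. The medians were −0.035 and 0.31, on spots with a median brightness of 12.8 and 4.25. Neither list was uniform. Of the root markers, AMT1-2, PHT1-8 (0.50) and LSI1 (0.12) had the sign of GSTU6, GST-I and GST-II, and LSI2 did not. The shoot markers PORA and CAB2R (0.69) had that sign too and lay above every root marker in swap mean, while CAB1R, rca and petC were below 0. As deposited, CAB2R was above 1 on both arrays, at 1.47 and 0.090 (log2). AMT1-2 (−0.24 and −1.32), LSI2 (−1.17 and −1.14) and CAB1R (−0.081 and −0.011) were below 1 on both. In each of these genes the gap between the turned arrays exceeded the swap mean in size, so the deposited values set no side. The part of a changed share of root in the GST ratios was not tested.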

How the data were processed

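The authors deposited a log10 ratio for each of 22575 spots on each of 2 arrays, which was multiplied here to log2. Per the labels, images were scanned and quantified with a GenePix scanner and the Gene Pix 4000 application, and normalized in GeneSpring version 4. Background correction is not given in the sources used here, and neither are filters. The number of arrays, not a depth, limits the precision. The members and lists were chosen with earlier results of these data known.

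Spots were paired with the annotation by transposing the spot grid and reversing both axes, under which 0 of the 228 control-like spots (log2 ratio below −2.2 on both arrays, brightness above 4.5) fell on a feature with 1 gene. As the reordering was found from these same values, that count is no independent check of it. Gene names came from the RefSeq table of assembly ASM3414082v1. Whole-number ratios are the simplest fractions within 6e-10 on the log10 scale, checked on simulated data. Probes of a gene were averaged on each array. The 4 members were described probe by probe. Other genes were named by rule: GSTs and glutathione genes found by symbol or synonym, and the nearest 2 named genes to each member. LOC4338208, LOC4338644 and LOC4349202 were named after their values were seen. The running median at a given brightness used 1001 spots. No test was run. Python 3.11.15, numpy 2.4.6 and pandas 2.3.3 were used.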

Additional observations from a re-analysis of the deposited data

How the results depend on the processing

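Swap means were recomputed centred on each array median, centred by brightness, from an array alone, as a plain mean, from the brightest probe and with names by spot number. A value was taken as moved when it changed by more than the spread of plain means at like brightness. The 2 bright GSTU6 probes did not move that far under centring, either array alone or, chosen after seeing the data, after subtracting the surrounding spots; AK111429 was −0.56 on array 1 alone and 0.28 on array 2 alone, turned. On array 1 alone GSTU6 was 0.69, GST-I 0.27, GST-II 0.47, GSTZ5 −1.81, the 6-gene family median 0.15 and the glutathione gene median −0.12; on array 2 alone, turned, they were 1.11, 0.92, 1.08, 1.84, 0.9998 and 0.50. As plain means they were −0.21, −0.32, −0.31, −1.82, −0.26 and −0.32. With names by spot number GSTU6 was −0.15, GST-I 0.022, GST-II −0.050, the family median 0.018, the glutathione median 0.41 and the plain mean of GSTZ5 −0.24, so every name depends on the grid. The brightest probe alone gave GSTU6 1.20, and the family median without the dimmest spots was 0.59. Centring by brightness gave a plain mean of −1.01 for GSTZ5.

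The count of 0 GST genes on the array 1 side was 3 from array 2 alone, 1 at 1.5-fold and 2 as probes. From array 2 alone this side means only a ratio at least 2-fold below 1 there. The 3 genes were GSTU6 (−1.11), GST-II (−1.08) and GSTZ5 (−1.84), though GSTZ5 had a swap mean of 0.015. On the array 2 side 0 became 1 from array 1 alone, which was GSTZ5 at −1.81. Of all 17839 probes, 0.544% were on the array 1 side. No share over all genes is given for 1 array alone or for 1.5-fold, so those counts have no background. The 1 gene lower on both was 0 by spot number and 0 without the dimmest spots. From array 2 alone the count was 3, the same genes as above, and does not mean low on both arrays. GSTU6 and GST-II were above 1 on array 1, at 0.69 and 0.47 (log2). For glutathione genes 0 became 1 on the array 1 side by spot number. The cause of these changes was not tested, except that fewer spots or arrays enter by construction. No paired analysis was possible because both arrays bear the same replicate number.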
